A study of Mus musculus with 20 samples.

Results

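The genes described here are 9 chemokines whose transcription is tied to interferon signalling, Cxcl9, Cxcl10, Cxcl11, Ccl2, Ccl5, Ccl7, Ccl8, Ccl12 and Ccl19. They were taken as every non-control probe of the array that carries one of these names, which gave 14 probes for 9 genes, out of 30139 genes or transcripts on the array. The levels were measured on 20 single-colour microarrays in 3 tissues: whole salivary gland (4 mice labelled Irgm1-/- and 4 WT), whole duodenum, called small intestine here (3 and 3), and macrophages isolated from the colon (3 and 3). Irgm1-/- stands for mice lacking Irgm1, a GTPase of the interferon-inducible IRG family. The labels name no treatment, and all mice had a C57BL/6 background under specific pathogen-free housing. In salivary gland all mice were female, and genotype ran with age: the mice labelled Irgm1-/- were 9 weeks old, and the WT mice were 6 or 7 weeks old. In small intestine and colonic macrophages the ages were 6 or 8 weeks in both genotypes, while 2 of 3 mice labelled Irgm1-/- were male and all WT mice were female. By their labels, the small intestine and the macrophages came from the same 6 animals.

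Chemokines are small secreted proteins that guide leukocytes through G protein-coupled receptors. Cxcl9, Cxcl10 and Cxcl11 are the ligands of Cxcr3, the receptor of activated T cells and natural killer cells, and interferons induce them through STAT and IRF factors at promoter elements such as the interferon-stimulated response element (ISRE). Ccl2, Ccl7 and Ccl12 draw monocytes through Ccr2, Ccl5 acts on T cells, natural killer cells and myeloid cells, mouse Ccl8 is a ligand of Ccr8, and Ccl19 guides T cells and mature dendritic cells through Ccr7. In the gene annotation (RefSeq, assembly GRCm38.p6) Cxcl9, Cxcl10 and Cxcl11 lie together on chromosome 5, with Art3 between Cxcl9 and Cxcl10. Ccl2, Ccl7, Ccl12 and Ccl8 lie together on chromosome 11, with Ccl11 between Ccl7 and Ccl12, Ccl5 lies elsewhere on chromosome 11, and Ccl19 is on chromosome 4. The same annotation lists Cxcl11 as a transcribed pseudogene and the other 8 as protein-coding.

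A level is the log2 intensity of a probe minus its array's 75th percentile, so that 0 is that percentile and 1 unit is a doubling. A difference is the mean level of the mice labelled Irgm1-/- minus the mean level of the WT mice, and its standard error (SE) and p-value come from limma, with Benjamini-Hochberg adjustment over all genes tested in the tissue and a threshold of 0.05. A gene was read from its brightest probe. It was tested where the number of arrays with that probe well above background reached the size of the smaller group. Where no WT array was above background, the WT level is only a bound, and the change is also given as a lowest fold against the dimmest signal that each WT array could measure.

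Irgm1, the mutated gene, was looked at first, and it read higher on the arrays labelled Irgm1-/- in each tissue, by 2.64 (SE 0.23, adjusted p = 0.000565) in salivary gland, 1.17 (SE 0.13, adjusted p = 0.0495) in small intestine and 0.89 (SE 0.31, adjusted p = 0.308) in macrophages, all from limma, and its other probe read higher by 2.26, 1.20 and 1.17. Whether the probes sit inside or outside the deleted segment is not known here, so the genotypes below are those of the labels, unchecked. Salivary gland arrays were the dimmest, with 25.2% to 48.7% of probes well above background against 52.6% to 62.1% in small intestine and 57.1% to 74.4% in macrophages. Array brightness, as the 75th percentile over all spots, ran with genotype in small intestine. It was 4234 to 5070 intensity units on the arrays labelled Irgm1-/- and 2563 to 3529 on the WT arrays. In salivary gland it was 159.5 to 1083 on the arrays labelled Irgm1-/- and 134.3 to 350.1 on the WT arrays. The markers fit the labelled tissues in part. All 5 salivary gland markers on the array were well above background on all 8 gland arrays, and all 6 small intestine markers were so on all 6 duodenal arrays. On the macrophage arrays 7 of 11 resident macrophage markers were above background on all 6 arrays, among them Adgre1, Csf1r and C1qa, but so were all 5 epithelial markers, including Epcam.

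In salivary gland most of these chemokines had higher levels in the mice labelled Irgm1-/-. Cxcl10, Ccl5, Ccl12 and Ccl19 passed the test as higher, Ccl8 and Cxcl11 were tested and did not pass, and Cxcl9, Ccl2 and Ccl7 were too dim in the gland to be tested by their brightest probe. The 4 that passed stand among 6 tested, while 2.11% of the 11454 genes tested in the gland were called higher (242 genes, against 18 lower; 177 and 48 with normexp background correction). The median difference was 2.17 over the 6 tested chemokines and 0.04 over all genes tested. Cxcl10 and Ccl12 entered the test through the arrays labelled Irgm1-/- alone, so a difference was built into their entry. In 8 of the 9 genes every array labelled Irgm1-/- lay above every WT array, which held for 5.28% of all genes read from their brightest probe. By an unadjusted p under 0.05, 5 of the 6 tested were higher, against 14.2% of all genes tested in the gland. In whole tissue, more cells of a type and more RNA per cell cannot be told apart.

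**Figure D1:**
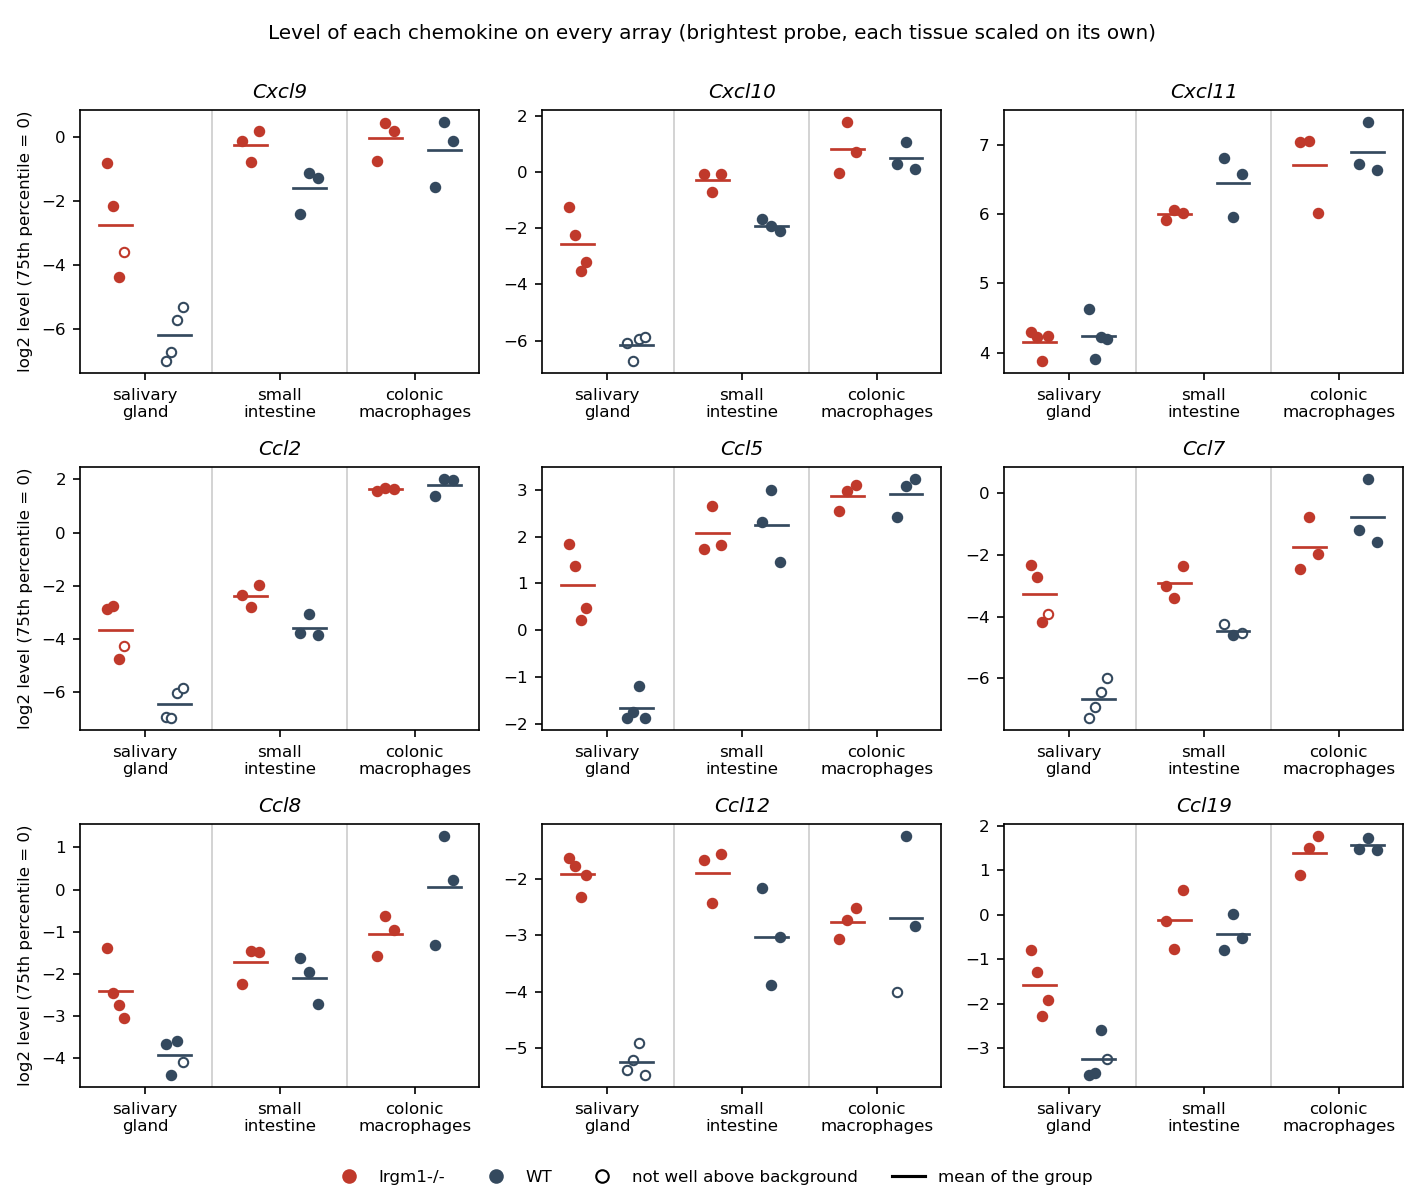
Log2 level of each chemokine on every array (y axis, with the array's 75th percentile as 0), by tissue and labelled genotype (x axis), from the brightest probe. Points are arrays, open points were not well above background, and bars are group means; in salivary gland the 2 genotypes overlap only for Cxcl11, and in colonic macrophages they overlap for all 9 genes. Each tissue was scaled on its own, so heights are compared within a tissue.

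The ligands of Cxcr3 behaved in different ways in the gland. Cxcl10 had levels of -1.26, -2.23, -3.52 and -3.22 in salivary glands of mice labelled Irgm1-/-, against -6.09, -6.72, -5.94 and -5.88 in WT glands. All 4 arrays labelled Irgm1-/- were above background and no WT array was, and the groups did not overlap. The difference was 3.60 (SE 0.46, adjusted p = 0.00375, limma), at least a 3.97-fold higher level. Cxcl10 has another probe, which stayed dim in the gland. It was above background on 1 of 4 arrays labelled Irgm1-/- and on 0 of 4 WT arrays, and its difference was 0.04. When both probes were averaged, the difference of Cxcl10 was 1.82 and no longer passed (adjusted p = 0.0774, limma). With normexp background correction the difference of the brightest probe was 2.09 (adjusted p = 0.0321, limma).

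Cxcl9 was read by a pair of probes that both separated the genotypes. The brightest over all tissues gave -0.81, -2.14, -4.38 and -3.58 in glands of mice labelled Irgm1-/-, against -6.99, -6.73, -5.71 and -5.32 in WT glands. It was above background on 3 of 4 arrays labelled Irgm1-/- and on 0 of 4 WT arrays, and so was not tested; the difference in means was 3.46, or at least 3.52-fold. The other probe gave 0.19, -1.51, -2.57 and -2.65 in glands of mice labelled Irgm1-/-, against -7.41, -7.14, -5.73 and -6.04 in WT glands. It was above background on all 4 arrays labelled Irgm1-/- and on no WT array. In the fit of every probe on its own, where 2.13% of 13647 probes were called higher, its difference was 4.94 (SE 0.65, adjusted p = 0.0043, limma), at least a 7.51-fold higher level, and it entered that fit through the arrays labelled Irgm1-/- alone.

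Cxcl11 did not follow the other ligands of Cxcr3. Its brightest probe gave 4.30, 4.22, 3.88 and 4.24 in glands of mice labelled Irgm1-/-, against 4.63, 3.91, 4.23 and 4.19 in WT glands. The groups overlapped and the difference was -0.08 (SE 0.17, 95% interval -0.47 to 0.30, adjusted p = 0.789, limma). Its other probe gave -3.40, -3.74, -3.45 and -3.39 in glands of mice labelled Irgm1-/-, against -2.80, -3.26, -3.23 and -3.19 in WT glands, a difference of -0.38 (SE 0.14, adjusted p = 0.195, limma, every probe). On that probe the arrays labelled Irgm1-/- all lay below the WT arrays.

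The brightest Cxcl11 probe carries sequence that many other probes of the array also hold. It shares a run of 15 bases with probes of 22 other genes, on either strand, which 0.959% of all 39429 probes match or exceed. The other Cxcl11 probe shares such a run with 3 genes, and each of the remaining 12 probes shares one with 1 gene or none. The shared stretch covers bases 14 to 43 of the probe, read 5′ to 3′, and the capitals mark bases that lie in runs found in probes of 10 or more other genes:
Cxcl11 probe: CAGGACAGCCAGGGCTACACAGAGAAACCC
What part of the signal of this probe came from Cxcl11 was not tested.

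**Figure D2:**
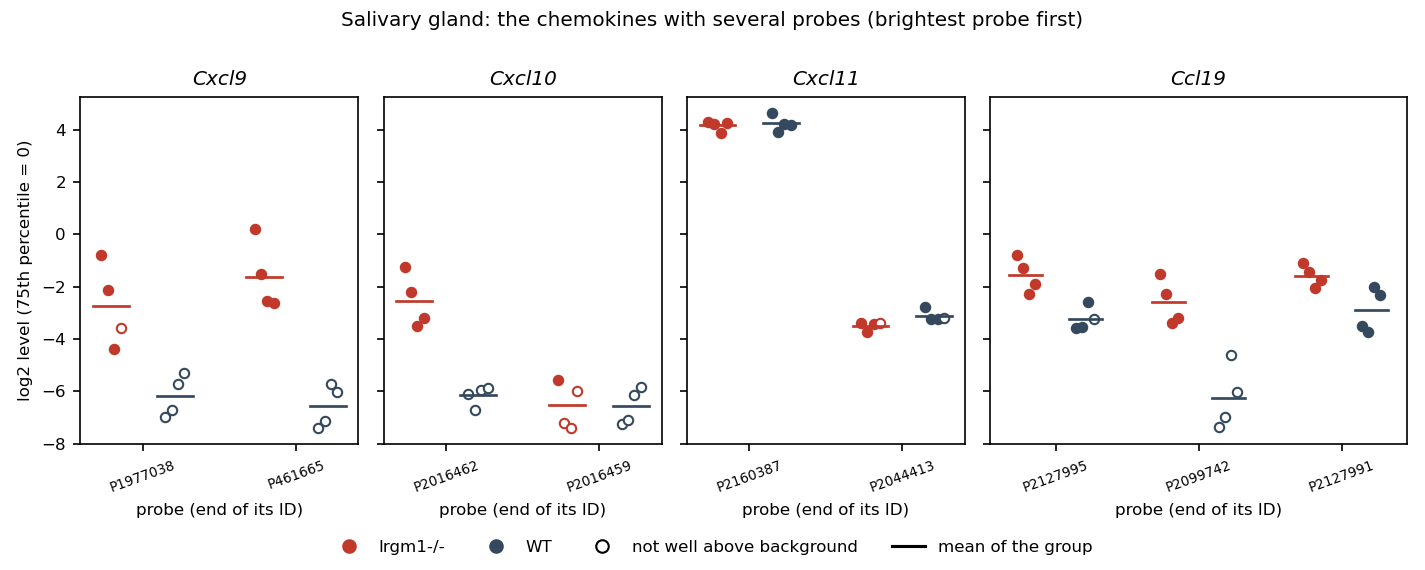
Log2 level in salivary gland (y axis, 75th percentile as 0) for the 4 chemokines with several probes, the probe brightest over all 20 arrays first (x axis, end of the probe's ID). Points are arrays, open points were not well above background, and bars are group means; both Cxcl9 probes and 2 of 3 Ccl19 probes separate the genotypes, while one Cxcl10 probe and the brightest Cxcl11 probe do not.

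Of the Ccr2 ligands, Ccl12 was tested in the gland and passed as higher, and Ccl2 and Ccl7 were not tested. Ccl12 had levels of -1.64, -1.78, -2.33 and -1.92 in glands of mice labelled Irgm1-/-, against -5.39, -5.22, -4.91 and -5.48 in WT glands. The spread within each genotype was small (SD 0.30 in glands labelled Irgm1-/- and 0.25 in WT glands, n = 4 each), and the gap between the groups was far larger. The difference was 3.33 (SE 0.18, adjusted p = 4.99e-05, limma), at least a 6.18-fold higher level, since no WT array was above background. With normexp background correction, the difference was 1.96 (adjusted p = 0.000624, limma).

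Ccl2 had levels of -2.89, -2.77, -4.75 and -4.26 in glands of mice labelled Irgm1-/-, against -6.94, -6.97, -6.04 and -5.83 in WT glands. Ccl7 had levels of -2.35, -2.72, -4.16 and -3.90 in glands of mice labelled Irgm1-/-, against -7.28, -6.94, -6.43 and -5.97 in WT glands. Both were above background on 3 of 4 arrays labelled Irgm1-/- and on 0 of 4 WT arrays, so neither was tested. The lowest fold was 1.83 for Ccl2 and 2.39 for Ccl7. With replicate 4 of the mice labelled Irgm1-/- left out, the dimmest array of its group, 3 arrays sufficed for testing and all 9 genes entered, with Ccl2, Ccl7 and Cxcl9 entering through the arrays labelled Irgm1-/- alone. Then 8 passed as higher, with differences of 2.98 for Ccl2 (adjusted p = 0.0227), 3.58 for Ccl7 (adjusted p = 0.00688) and 3.74 for Cxcl9 (adjusted p = 0.0428), all from limma. In the same fit 548 of all 12161 genes tested were called, higher or lower. With a WT array left out instead, Cxcl9, Ccl2 and Ccl7 again entered through the arrays labelled Irgm1-/- alone, so a difference was built into their entry. Over all 8 fits that left out 1 gland array, 153 to 548 genes were called, higher or lower. Without a WT array Cxcl9 never passed (adjusted p from 0.0743 to 0.145, limma). Ccl2 did not pass without WT replicate 1 or 2 (adjusted p = 0.0649 and 0.0748, limma), while Ccl7 passed each time.

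By the brightest probe, only Ccl5 and Cxcl11 of the 9 were above background on all 8 gland arrays. Its levels were 1.85, 1.38, 0.21 and 0.47 in glands of mice labelled Irgm1-/-, against -1.88, -1.74, -1.20 and -1.88 in WT glands. The groups did not overlap, and the difference was 2.65 (SE 0.36, adjusted p = 0.00476, limma), a 6.29-fold higher level.

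Ccl8 pointed the same way and missed the threshold. Its levels were -1.39, -2.45, -2.75 and -3.05 in glands of mice labelled Irgm1-/-, against -3.67, -4.41, -3.59 and -4.10 in WT glands. The groups did not overlap, with a difference of 1.53 (SE 0.35, 95% interval 0.74 to 2.33, adjusted p = 0.0644, limma). With the slide as a block the same difference had an adjusted p of 0.0433.

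Ccl19 had levels of -0.80, -1.29, -2.28 and -1.91 in glands of mice labelled Irgm1-/-, against -3.60, -3.56, -2.59 and -3.23 in WT glands, by its brightest probe. The difference was 1.68 (SE 0.35, adjusted p = 0.0467, limma), close to the threshold. Leaving out any of 5 single arrays ended the call in limma: without replicate 1 or 2 labelled Irgm1-/- the difference was 1.42 or 1.58 (adjusted p = 0.0597 and 0.146, limma). Without WT replicate 1, 2 or 4 it was 1.56, 1.57 or 1.68 (adjusted p = 0.103, 0.133 and 0.111, limma).

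The other Ccl19 probes gave changes of unequal size. One gave -1.52, -2.29, -3.38 and -3.18 in glands of mice labelled Irgm1-/-, against -7.38, -6.99, -4.62 and -6.04 in WT glands, a difference of 3.66 (SE 0.63, adjusted p = 0.0186, limma, every probe) and at least 3.86-fold, and it entered the fit through the arrays labelled Irgm1-/- alone. The other gave -1.09, -1.43, -2.07 and -1.73 in glands of mice labelled Irgm1-/-, against -3.49, -3.73, -2.03 and -2.33 in WT glands, where the groups overlapped and the difference was 1.32 (SE 0.40, adjusted p = 0.135, limma, every probe). The probes differ in place: the file puts the 2 with the smaller changes at bases 126 and 22 of the transcript and the one with the largest change at base 415. Those at bases 126 and 22 begin before the RefSeq start used for the promoter here, by 27 and 131 bases, so that start is not the start of the transcript the array was designed on. Chromosome 4 also carries Ccl19-ps1, Ccl19-ps2, Ccl19-ps3 and Gm2023, copies of Ccl19 in the annotation, so which copy a Ccl19 probe reads is uncertain.

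Each tissue was hybridized on 2 slides with both genotypes on each, and the gland differences were larger on the first slide for all 8 genes whose groups did not overlap. On slide 1 the difference was 5.38 for Cxcl9 and 4.67 for Cxcl10, against 1.54 and 2.54 on slide 2. For Ccl2, Ccl7 and Ccl5 it was 4.13, 4.57 and 3.42 on slide 1, against 1.43, 2.17 and 1.88 on slide 2. Ccl12 differed least between slides, with 3.59 on slide 1 and 3.07 on slide 2. Ccl8 and Ccl19 had differences of 2.12 and 2.54 on slide 1, against 0.95 and 0.82 on slide 2. WT levels of Cxcl9, Cxcl10, Ccl2, Ccl7 and Ccl12 are bounds on both slides, so their differences within a slide depend on the background. For Ccl7, WT intensities of 24.4 and 25.8 on slide 1 gave levels of -7.28 and -6.94. On slide 2, intensities of 21.4 and 23.4 gave -6.43 and -5.97. Slide 1 also held most of the brighter gland arrays. Its 75th percentiles over all spots were 373.3 and 1083 (labelled Irgm1-/-) and 274.1 and 350.1 (WT). On slide 2 they were 159.5 and 382.7 (labelled Irgm1-/-) and 134.3 and 176.8 (WT). Age ran with slide as well: the WT mice were 6 weeks old on slide 1 and 7 weeks old on slide 2. All mice labelled Irgm1-/- were 9 weeks old. The parts of array brightness and age in the slide difference were not tested.

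**Figure D3:**
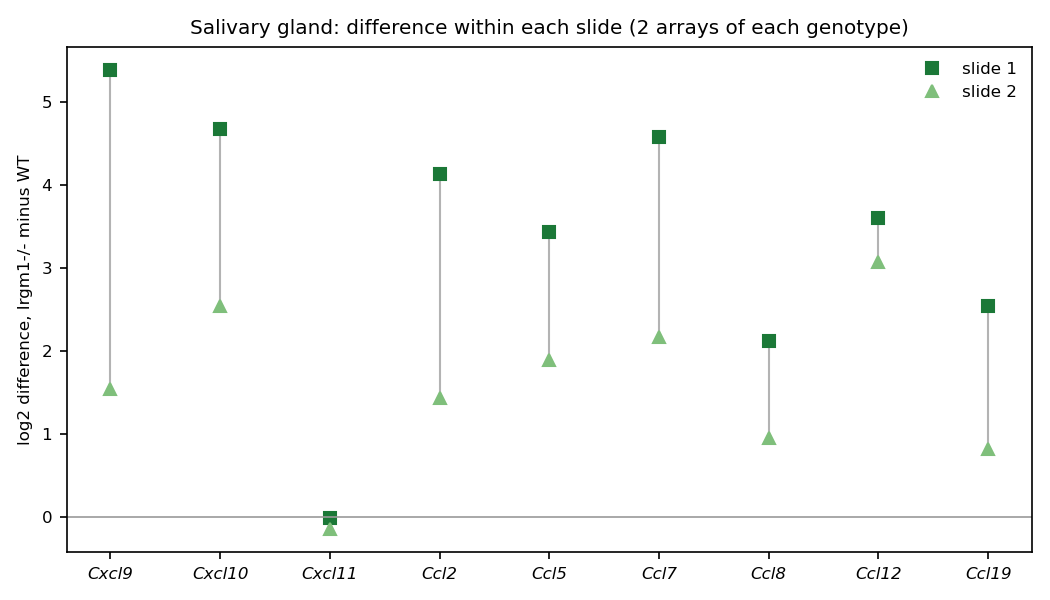
Difference in salivary gland between mice labelled Irgm1-/- and WT mice within each slide (y axis, log2) for each chemokine (x axis), from the brightest probe; each point compares 2 arrays with 2. On both slides every gene but Cxcl11 was higher in the mice labelled Irgm1-/-, and slide 1 (squares) gave the larger difference. WT mice were 6 weeks old on slide 1 and 7 weeks old on slide 2. WT levels of Cxcl9, Cxcl10, Ccl2, Ccl7 and Ccl12 are bounds.

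Promoters were available for 5 of the 9 genes (Cxcl9, Cxcl10, Ccl8, Ccl12 and Ccl19) as 250 bases before to 50 bases after the annotated start. They were searched on both strands for an ISRE core (GAAA, any 2 bases, GAAA; in 3.44% of 32851 promoters of this length), an NF-kB site (kB: GGGA, any base, TT, any base, CC; in 1.20%) and a gamma-activated site (GAS: TTC, any 3 bases, GAA; in 8.30%). The matches in these 5 promoters did not overlap. Cxcl10 held the ISRE letters 213 bases before the start and the kB letters 103 bases before it. Ccl19 held the same 10 ISRE letters, GAAAGTGAAA, 208 bases before the RefSeq start, which lies past the start of the transcript on the array, and no kB letters. Cxcl9, Ccl8 and Ccl12 held neither, and none of the 5 held the GAS letters. The sequences of Cxcl10 and Ccl19, with matches, and of Ccl12, the most evenly raised gene, without one, are shown for these motifs from RefSeq, assembly GRCm38.p6, 5′ to 3′ along the gene's own strand, with the ISRE and kB letters in capitals. They lie at chr5:92348840-92349139 on the minus strand for Cxcl10, at chr4:42756316-42756615 on the minus strand for Ccl19 and at chr11:82101595-82101894 on the plus strand for Ccl12.
Cxcl10: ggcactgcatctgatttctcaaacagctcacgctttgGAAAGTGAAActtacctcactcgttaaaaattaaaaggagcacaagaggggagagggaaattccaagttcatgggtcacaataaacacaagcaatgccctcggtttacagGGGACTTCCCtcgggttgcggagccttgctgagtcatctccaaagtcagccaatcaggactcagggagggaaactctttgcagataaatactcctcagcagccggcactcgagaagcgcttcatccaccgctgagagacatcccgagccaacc
Ccl19: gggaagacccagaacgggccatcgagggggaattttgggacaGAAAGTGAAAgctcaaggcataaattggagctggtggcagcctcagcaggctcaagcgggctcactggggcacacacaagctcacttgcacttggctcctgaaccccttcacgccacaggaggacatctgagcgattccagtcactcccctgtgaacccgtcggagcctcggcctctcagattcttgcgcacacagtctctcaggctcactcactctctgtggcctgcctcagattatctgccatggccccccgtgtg
Ccl12: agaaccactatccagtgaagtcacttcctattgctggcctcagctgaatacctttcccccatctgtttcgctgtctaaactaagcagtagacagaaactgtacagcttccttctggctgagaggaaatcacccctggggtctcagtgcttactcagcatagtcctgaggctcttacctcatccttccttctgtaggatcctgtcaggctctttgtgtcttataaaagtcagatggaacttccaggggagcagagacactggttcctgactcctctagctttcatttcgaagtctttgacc
These matches describe letters in a window and show no binding.

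In small intestine the same chemokines passed no test. Of the 9 genes, all tested, 0 were called at an adjusted p under 0.05 by limma, against 0.178% of 17979 genes called higher (32 genes, and 0 lower). At an unadjusted p under 0.05, 5 were higher (Cxcl9, Cxcl10, Ccl2, Ccl7 and Ccl12), against 3.19% of all genes tested. The median difference of the 9 was 1.14, and that of all genes tested was -0.08. In Cxcl9, Cxcl10, Ccl2 and Ccl7 every array labelled Irgm1-/- lay above every WT array, as in 3.96% of all genes read from their brightest probe. With the mouse number as a block, 1 gene of the whole tissue was called and none of these chemokines.

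Cxcl10 had duodenal levels of -0.07, -0.72 and -0.06 in mice labelled Irgm1-/-, against -1.68, -1.93 and -2.11 in WT mice. The difference was 1.63 (SE 0.23, 95% interval 1.06 to 2.19, adjusted p = 0.12, limma), with 1.61 on slide 1 and 1.63 on slide 2. The other Cxcl10 probe differed by 0.78 (SE 0.49, adjusted p = 0.695, limma, every probe), with 1.42 on slide 1 and 0.46 on slide 2. On that probe the groups overlapped. Cxcl9 had levels of -0.12, -0.77 and 0.19 in mice labelled Irgm1-/-, against -2.41, -1.11 and -1.27 in WT mice, a difference of 1.36 (SE 0.41, adjusted p = 0.652, limma). Its other probe differed by 0.97 (SE 0.20, adjusted p = 0.38, limma, every probe).

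Among the Ccr2 ligands in small intestine, Ccl7 had levels of -3.00, -3.41 and -2.36 in mice labelled Irgm1-/-, against -4.24, -4.59 and -4.52 in WT mice, and only 1 of 3 WT arrays was above background. The difference was 1.53 (SE 0.28, adjusted p = 0.261, limma). Ccl2 had levels of -2.33, -2.80 and -1.98 in mice labelled Irgm1-/-, against -3.79, -3.07 and -3.86 in WT mice, a difference of 1.20 (SE 0.30, adjusted p = 0.539, limma). Ccl12 had levels of -1.67, -2.43 and -1.56 in mice labelled Irgm1-/-, against -2.16, -3.89 and -3.03 in WT mice; the groups overlapped, and the difference was 1.14 (SE 0.47, adjusted p = 0.681, limma).

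The remaining 4 chemokines overlapped between genotypes in small intestine. Ccl5 had levels of 1.74, 2.66 and 1.82 in mice labelled Irgm1-/-, against 2.33, 2.99 and 1.45 in WT mice, a difference of -0.18 (SE 0.44, 95% interval -1.24 to 0.88, adjusted p = 0.868, limma). The differences of Ccl8, Ccl19 and Cxcl11 were 0.36, 0.32 and -0.46, with 95% intervals of -0.48 to 1.20, -0.59 to 1.24 and -1.03 to 0.11. Both intestinal genotypes were above background on all arrays for these 4 genes.

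In isolated colonic macrophages none of the 9 chemokines separated the genotypes. All 9 were tested, 0 were called by limma and 0 had an unadjusted p under 0.05, against 0.00949% of 21083 genes called higher (2 genes, against 26 lower) and 4.06% higher at an unadjusted p under 0.05. In 0 of the 9 did every array labelled Irgm1-/- lie above every WT array, against 5.97% of all genes. The median difference was -0.15 over the 9 and 0.10 over all genes tested. With the mouse number as a block, 1044 genes were called in this tissue (245 higher and 799 lower), and still none of these chemokines.

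Cxcl10 had macrophage levels of -0.03, 1.78 and 0.70 in mice labelled Irgm1-/-, against 0.28, 1.07 and 0.10 in WT mice, a difference of 0.33 (SE 0.47, 95% interval -0.74 to 1.41, adjusted p = 0.898, limma). Its other probe differed by -0.53 (SE 0.35, adjusted p = 0.694, limma, every probe). Ccl5 had levels of 2.54, 2.99 and 3.11 in mice labelled Irgm1-/-, against 2.43, 3.08 and 3.24 in WT mice, a difference of -0.03 (SE 0.31, 95% interval -0.73 to 0.67, adjusted p = 0.986, limma). The arrays of both genotypes lay among one another for both genes.

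Ccl8 and Ccl7 had the largest differences in macrophages, with lower means in mice labelled Irgm1-/-. Ccl8 had levels of -1.59, -0.64 and -0.97 in mice labelled Irgm1-/-, against -1.33, 1.27 and 0.23 in WT mice, a difference of -1.13 (SE 0.60, 95% interval -2.49 to 0.24, adjusted p = 0.614, limma). Ccl7 had levels of -2.45, -0.78 and -1.99 in mice labelled Irgm1-/-, against -1.22, 0.44 and -1.61 in WT mice, a difference of -0.95 (SE 0.60, 95% interval -2.31 to 0.42, adjusted p = 0.699, limma). The differences of Cxcl9, Ccl12, Ccl2, Ccl19 and Cxcl11 were 0.36, -0.07, -0.15, -0.17 and -0.19, with adjusted p from 0.901 to 0.984 in limma. The intervals are wide, at -1.46 to 1.32 for Ccl12 and -0.86 to 1.58 for Cxcl9.

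**Figure D4:**
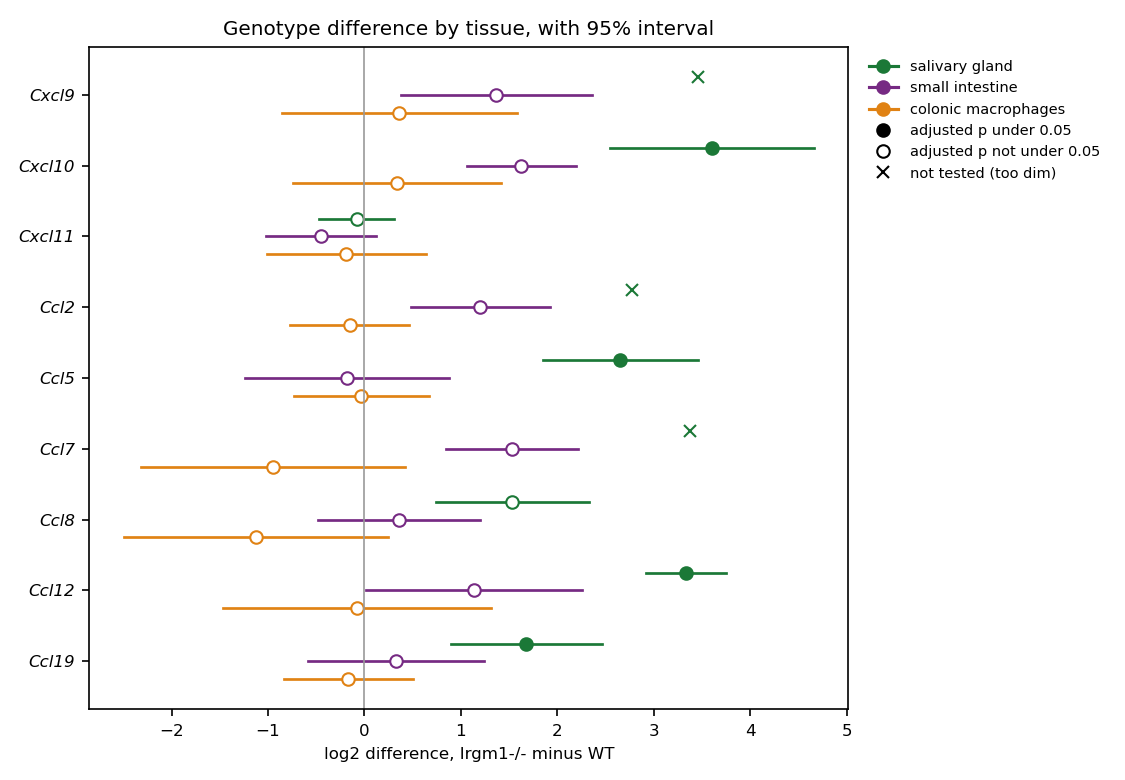
Log2 difference between mice labelled Irgm1-/- and WT mice (x axis) for each chemokine (y axis) in the 3 tissues, with the 95% interval from limma. Filled points passed the threshold, open points did not and crosses were too dim to test; only salivary gland has filled points, for Cxcl10, Ccl5, Ccl12 and Ccl19.

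Whether the genotype difference itself differed between tissues was tested by an interaction in a single fit of all 20 arrays, over genes tested in both tissues. Salivary gland minus small intestine called 1 of the 6 chemokines tested, Ccl5, against 0.72% of 10977 genes called positive. Its genotype difference was larger in the gland by 2.84 (SE 0.55, adjusted p = 0.0141, limma), and the call was lost without small intestine replicate 1 or 3 labelled Irgm1-/- (adjusted p = 0.0645 and 0.0527, limma). The interaction values of Ccl12, Cxcl10, Ccl19 and Ccl8 were 2.20, 1.98, 1.35 and 1.17 (adjusted p = 0.197, 0.254, 0.341 and 0.519, limma). In the fit of every probe, where 0.718% of 13093 probes were called positive, the Cxcl9 probe that was less bright over all tissues had an interaction of 3.98 (SE 0.90, adjusted p = 0.0425, limma). That probe entered through the gland arrays labelled Irgm1-/- alone. WT gland levels of this probe, of Ccl12 and of Cxcl10 are bounds, so their interaction values depend on the background.

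Salivary gland minus colonic macrophages called 5 of 6, against 6.29% of 10876 genes called positive. The genotype difference was larger in the gland by 3.41 for Ccl12 (SE 0.66, adjusted p = 0.00281), 3.27 for Cxcl10 (SE 0.65, adjusted p = 0.00334) and 2.69 for Ccl5 (SE 0.55, adjusted p = 0.0041), all from limma. It was larger by 2.66 for Ccl8 (SE 0.68, adjusted p = 0.0198) and 1.85 for Ccl19 (SE 0.50, adjusted p = 0.0298), all from limma. WT gland levels of Ccl12 and Cxcl10 are bounds, so these 2 values depend on the background. Ccl19 passed in 7 of the 14 fits that left out 1 array, and Ccl8 did not pass without macrophage replicate 1 labelled Irgm1-/- or WT replicate 2 (adjusted p = 0.0735 and 0.0672, limma). With normexp background correction 2 of the 5 passed, Ccl12 (2.13) and Ccl5. Every probe fitted on its own, with 5.95% of 12949 probes called positive, gave 4.56 for the same Cxcl9 probe (adjusted p = 0.0034, limma) and 4.38 for the Ccl19 probe at base 415 of the transcript (adjusted p = 0.00163, limma). Both probes entered through the gland arrays labelled Irgm1-/- alone, and their WT gland levels are bounds, so these values also depend on the background. Cxcl11 had 0.37 against small intestine and 0.11 against macrophages (adjusted p = 0.671 and 0.94, limma). Small intestine minus macrophages called 0 of 9, against 1.11% of 15915 genes called positive, with Ccl7 at 2.47 (SE 0.79, adjusted p = 0.126, limma) and Ccl2 at 1.36 (adjusted p = 0.287, limma). Age, sex and array brightness also differ between the tissues' groups and cannot be told apart from tissue in these tests.

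Levels across tissues were set on 1 common scale, with 0 at the 75th percentile of the probes well above background on all 20 arrays, and are given as a description. Ccl5 was highest in glands labelled Irgm1-/- (0.85 ± 0.75, SD, n = 4), whose arrays overlapped those of macrophages labelled Irgm1-/- (0.33 ± 0.47, n = 3) and of WT macrophages (0.46 ± 0.57, n = 3). Both intestinal groups followed, with -0.98 ± 0.46 in mice labelled Irgm1-/- and -1.005 ± 0.81 in WT mice (n = 3 each), and WT glands were last (-1.79 ± 0.32, n = 4). Ccl5 in WT glands overlapped with the WT intestine next to it.

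By its brightest probe, Cxcl10 was highest in macrophages (-1.73 ± 0.98 labelled Irgm1-/- and -1.97 ± 0.55 WT, n = 3 each). Glands labelled Irgm1-/- (-2.68 ± 1.02, n = 4) and intestine labelled Irgm1-/- (-3.33 ± 0.43, n = 3) overlapped their neighbours. Below a gap came WT intestine (-5.17 ± 0.12, n = 3), with no order against WT glands, where Cxcl10 was above background on no array. By its other probe both macrophage groups (-2.47 ± 0.59 labelled Irgm1-/- and -1.84 ± 0.23 WT, n = 3 each) lay above all other groups without overlap. Glands labelled Irgm1-/- had -6.66 ± 0.89 (n = 4) on that probe. For Cxcl9 by its brightest probe, WT intestine (-4.86 ± 0.89, n = 3) and WT glands had the lowest means. They have no order, since Cxcl9 was above background on no WT gland array. By its other probe WT intestine (-3.94 ± 0.31, n = 3) lay above macrophages labelled Irgm1-/- (-5.17 ± 1.19) and WT macrophages (-5.46 ± 1.26, n = 3 each) without overlap. Ccl12 was highest in glands labelled Irgm1-/- (-2.04 ± 0.29, n = 4), above all other groups without overlap, and the next 4 groups, from -4.94 ± 0.53 in intestine labelled Irgm1-/- to -5.36 ± 0.24 in WT glands, each overlapped the next. WT intestine had -6.29 ± 0.70 (n = 3), and it has no order against WT glands, where Ccl12 was above background on no array.

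Ccl2 was highest in macrophages (-0.92 ± 0.22 labelled Irgm1-/- and -0.67 ± 0.50 WT, n = 3 each) and apart from all other groups. Glands labelled Irgm1-/- followed at -3.79 ± 0.99 (n = 4), then intestine labelled Irgm1-/- at -5.42 ± 0.46 (n = 3), and WT intestine had -6.83 ± 0.56 (n = 3), with no order against WT glands, where Ccl2 was above background on no array. Ccl7, Ccl8 and, by its brightest probe, Ccl19 were each highest in WT macrophages (-3.25 ± 1.11, -2.39 ± 1.42 and -0.89 ± 0.22, n = 3). The next group in order, glands labelled Irgm1-/- for Ccl7 and Ccl8 and macrophages labelled Irgm1-/- for Ccl19, overlapped with it. By the Ccl19 probe at base 415, glands labelled Irgm1-/- had the highest mean (-2.72 ± 0.84, n = 4) and overlapped WT macrophages (-2.73 ± 0.81, n = 3). Cxcl11 by its brightest probe ranged least, from 4.44 ± 0.43 in WT macrophages to 2.94 ± 0.06 in intestine labelled Irgm1-/- (n = 3 each). Its other probe ranged from 1.90 ± 0.44 in WT macrophages (n = 3) to -3.62 ± 0.16 in glands labelled Irgm1-/- (n = 4). On that probe both macrophage groups lay above all other groups without overlap.

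Over the 20 arrays, after each tissue's mean was removed, 5 of the 6 chemokines tested in all tissues moved together. Cxcl10 correlated with Ccl12, Ccl19 and Ccl5 at Pearson's r of 0.89, 0.87 and 0.82, and with Ccl8 at 0.70, while Cxcl11 had r from -0.19 to 0.18 with the other 5. The genes outside the set most like Cxcl10 among 8268 named genes were Trex1 (r = 0.97), a DNA exonuclease, and Mndal (r = 0.96), an interferon-inducible gene. Trex1 was also among those most like Ccl12 (r = 0.93), with Gbp3, an interferon-induced GTPase (r = 0.93). Ccl5 was most like Ctsw, a protease of cytotoxic lymphocytes (r = 0.94), and Ifi47, an interferon-induced GTPase (r = 0.94). Ccl8 was most like Ms4a7 and Rab8b (r = 0.93 each), Ccl19 like Serpina3g and Hsd11b1 (r = 0.90 and 0.89), and Cxcl11 like Klhl21 and Wfs1 (r = 0.82 and 0.81). These values describe arrays that share scaling, tissue and genotype groups, and salivary gland supplies most of the genotype difference.

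Receptors for these chemokines were hard to measure in the gland. None of 9 receptors on the list was bright enough to be tested there, and Ccr1, Ccr2, Ccr3 and Ackr2 were not well above background on any gland array. Cxcr3 was above background on 2 of 4 arrays labelled Irgm1-/- and on 0 of 4 WT arrays. In small intestine 6 receptors were tested and 0 passed. In macrophages 7 were tested and 0 passed, and Ackr1, the atypical receptor that binds many chemokines, had the smallest p (-1.69, SE 0.40, adjusted p = 0.143, limma).

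Of 25 other chemokines, 24 on the array, 10 were tested in the gland and 4 passed as higher, against 2.11% of all genes tested there. Cxcl16, the ligand of Cxcr6, had mean levels of -1.12 in glands labelled Irgm1-/- and -2.27 in WT glands, a difference of 1.15 (SE 0.22, adjusted p = 0.0316, limma). Cxcl12, the ligand of Cxcr4, differed by 1.11 (SE 0.18, adjusted p = 0.0165, limma), and Ccl9 by 0.97 (SE 0.20, adjusted p = 0.0477, limma). Pf4 also passed, and the median of the 10 was 0.92, against 0.04 over all genes tested in the gland. Cxcl1, Cxcl2, Cxcl5 and Cxcl15, among the 8 not above background on any gland array, include the neutrophil attractants of the list. In small intestine and macrophages 0 of 17 passed, with medians of -0.12 and -0.76 beside -0.08 and 0.10 for all genes tested. The smallest p belonged to Ccl3 in intestine (1.70, SE 0.31, adjusted p = 0.254, at least 1.84-fold) and to Cxcl12 in macrophages (-1.24, SE 0.34, adjusted p = 0.182), from limma.

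Of 13 transcription factors, cytokines and regulators that induce or restrain these chemokines, 8 were tested in the gland and 6 passed as higher. The median of the 8 was 1.40. Of all genes tested in the gland, 2.11% were called higher and the median was 0.04. Irf7 and Socs1 entered the test through the arrays labelled Irgm1-/- alone. Irf7, which drives type I interferon genes, had mean levels of -0.95 in glands labelled Irgm1-/- and -5.07 in WT glands, where it was above background on no array; the difference was 4.12 (SE 0.34, adjusted p = 0.000501, limma), at least 11.7-fold. Socs1, an inhibitor of interferon signalling, differed by 3.20 (SE 0.44, adjusted p = 0.0059, limma), at least 2.32-fold. Stat2, a component of the factor that binds the ISRE, differed by 1.63 (SE 0.18, adjusted p = 0.00166, limma). Irf1, Irf8 and Irf9 also passed, and the NF-kB genes Rela and Nfkbia were tested and did not pass. Ifnb1 was not above background on any gland array, and Ifng was above it on 1 of 8. In small intestine 0 of 11 passed, and in macrophages 0 of 13 (Irf7, 1.75, SE 0.30, adjusted p = 0.0916, limma).

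**Figure D5:**
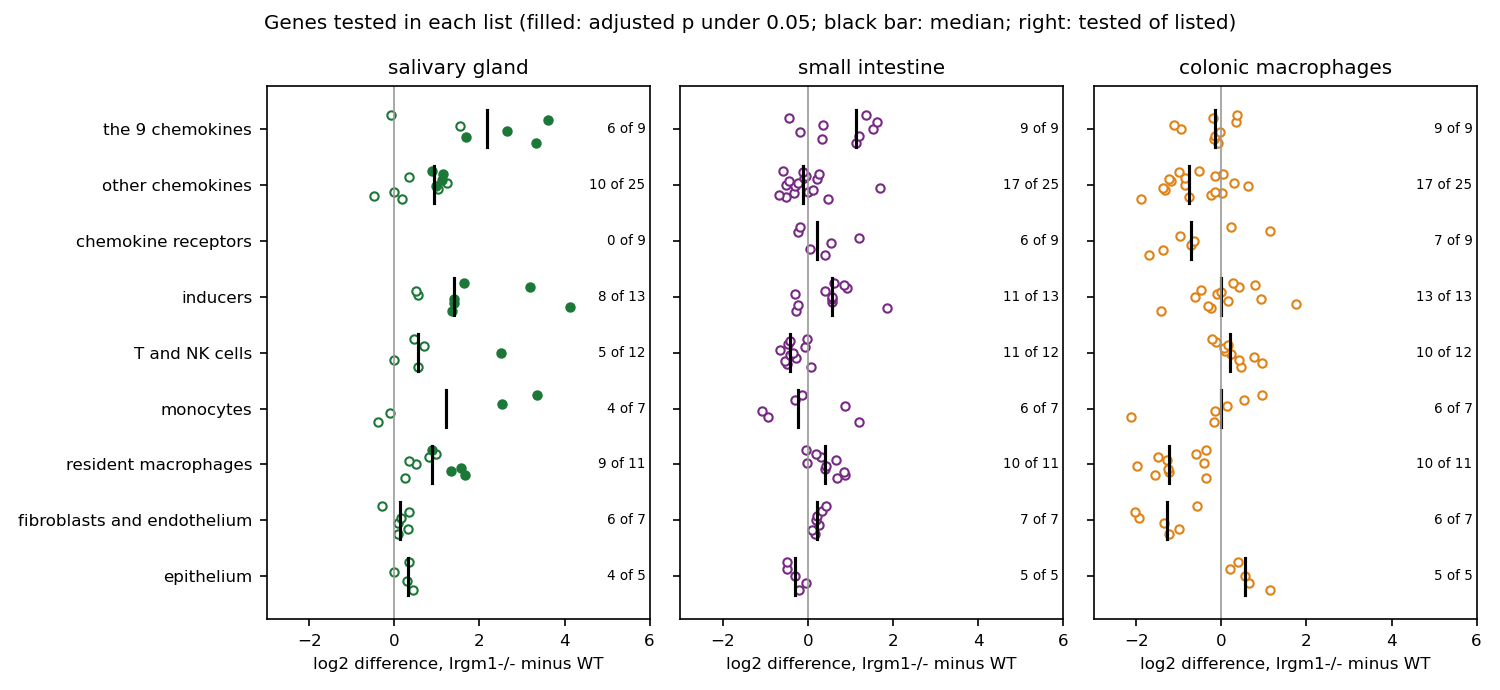
Log2 difference between mice labelled Irgm1-/- and WT mice (x axis) for the tested genes of each list (y axis) in the 3 tissues. Filled points passed the threshold, black bars are medians and the counts give genes tested of genes listed; filled points appear only in salivary gland, mainly among the 9 chemokines, the other chemokines, the inducers and the macrophage and monocyte markers.

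Some leukocyte markers also passed as higher in salivary gland, where 2.11% of all genes tested were called higher. Of the genes listed as monocyte markers 2 of 4 tested passed as higher, Plac8 by 3.36 and Ly6c1 by 2.52. Itgam and Chil3 did not pass (-0.10 and -0.39), and Ly6c2 was not on the array. Plac8 had mean levels of 5.92 (labelled Irgm1-/-) and 6.22 (WT) in whole small intestine. Whether Plac8 and Ly6c1 read monocytes in the gland was not tested. Of the resident macrophage markers 4 of 9 passed, C1qa, C1qb, C1qc and Mrc1, and the mean level of the 9 was -0.90 to -0.34 on the arrays labelled Irgm1-/-, against -1.57 to -1.49 on the WT arrays. Of the T and natural killer cell markers 1 of 5 passed, Gzma (2.50), while Cd4, Prf1, Cd3e and Nkg7 did not (-0.01, 0.45, 0.56 and 0.70), and the mean level of the 5 was -1.24 to -0.60 on the arrays labelled Irgm1-/-, against -2.15 to -1.46 on the WT arrays; Ncr1 was not above background on any gland array. Itgax (1 of 2 dendritic cell markers tested) and Ly6g (1 of 2 neutrophil markers tested) passed as higher; Ly6g entered through the arrays labelled Irgm1-/- alone, and Csf3r did not pass (-0.07). Xcr1, Clec9a, Itgae, Cd209a, S100a8, S100a9, Mmp9 and Cd163 were not above background on any gland array. None of 6 fibroblast and endothelial, 4 epithelial, 5 salivary gland or 1 B cell marker tested passed, and the mean level of the salivary gland markers was 1.53 to 3.99 on the arrays labelled Irgm1-/-, against 3.15 to 4.51 on the WT arrays. The part of these cells in the chemokine differences was not tested.

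In small intestine 0 markers of any list passed, and the mean level of the 10 resident macrophage markers was 0.62 to 1.03 on the arrays labelled Irgm1-/-, against 0.06 to 0.58 on the WT arrays. In colonic macrophages 0 passed either. There the mean level of the 10 tested resident macrophage markers was -1.81 to -0.55 on the arrays labelled Irgm1-/-, against -1.07 to 0.72 on the WT arrays, with a median difference of -1.24. The fibroblast and endothelial markers were at 0.53 to 2.06 on the arrays labelled Irgm1-/-, against 2.37 to 3.16 on the WT arrays, and the 5 epithelial markers at 2.90 to 3.95 on the arrays labelled Irgm1-/-, against 2.38 to 3.65 on the WT arrays. The part of cell makeup in the macrophage values was not tested.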

How the data were processed

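RNA was hybridized in 1 colour (Cy5) to Agilent arrays of design 026655 with 60-base probes. Per the file headers, the deposited intensity values were background-subtracted and detrended within each array by Feature Extraction 11.5.1.1 and were not normalized between arrays, and the annotation build is mm9. Spots the software marked as outliers (0.43%) were left out, spots of a probe were averaged as log2, and 39429 probes were assigned to 30139 genes or transcripts, 27508 of them through an accession in the RefSeq table and 11921 by the name in the file. The array's 75th percentile was taken over all spots, or, in salivary gland, where under 50% of probes were detected on every array, over probes well above background on all 8 arrays. Linear models with moderated variance (limma 3.58.1 in R 4.3.3) were fitted to each tissue on its own, with Benjamini-Hochberg adjustment over all genes tested. The number of arrays, 3 or 4 a group, limits the precision. Labels name separate mice for the arrays of a group. On simulated data, with independent noise around real probe means, the fits recovered known changes on average. The simulation held no pairing, slide effect or background floor, and it scaled salivary gland by the percentile over all spots. Same-numbered mice deviated together in small intestine (correlations 0.23, 0.28 and 0.33) and in macrophages (0.45, 0.24 and 0.63). Those arrays also shared age and slide, so whether the mouse number itself pairs them is not known. In salivary gland the correlations had both signs (0.22, -0.11, -0.53 and 0.44). Blocked counts are printed where they move a count.

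Named genes were all 9 chemokines, Irgm1, in each list up to 3 called genes with the largest change (or the gene with the smallest p), and for each chemokine the 2 genes most correlated with it; markers named beside their counts were chosen after their values were seen. The chemokines, lists and tests were chosen with earlier results of these data known. Alternatives covered background correction, normalization, filters, probe choice, blocks, the authors' deposited series table of intensity, and each array left out in turn; fits of female mice alone were added after seeing the data. That table follows the scanner values (r of at least 0.953 on the log2 scale), and its column medians are 47.6 in salivary gland, 298.7 in small intestine and 381.2 in macrophages, equal within a tissue to within rounding; how it was normalized is not stated in the labels. Some list results are not reported here.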

Additional observations from a re-analysis of the deposited data

Results flagged for a closer look

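Tests of the difference between tissues picked out 9 chemokine results. Relative to colonic macrophages, the genotype difference in salivary gland was larger by 3.41 for Ccl12, 3.27 for Cxcl10, 2.69 for Ccl5, 2.66 for Ccl8 and 1.85 for Ccl19, on the log2 scale; WT gland levels of Ccl12 and Cxcl10, and of the Cxcl9 and Ccl19 probes below, were above background on no array, so these values depend on the background. Relative to small intestine it was larger by 2.84 for Ccl5. In the fit of every probe on its own, the Cxcl9 probe that was less bright over all tissues had 4.56 against macrophages and 3.98 against small intestine, and the Ccl19 probe at base 415 of the transcript had 4.38 against macrophages. These tests set groups of different age, sex and array brightness side by side, and the part of those in the differences was not tested.

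Among 28 groups of 4 salivary gland arrays, 1 for each probe and genotype, 2 held an array far from the others, where chance alone gives about 1 in 20. Both belong to the dimmer Cxcl11 probe, with replicate 2 labelled Irgm1-/- low at -3.74 and WT replicate 1 high at -2.80.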

How the results depend on the processing

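In salivary gland Ccl5 and Ccl12 kept their direction and passed the threshold under all 21 alternatives, at 2.36 to 2.91 for Ccl5 and 1.96 (normexp) to 3.47 for Ccl12, and no called chemokine result reversed under any. Leaving out each array in turn gave 3 to 8 chemokines and 153 to 548 genes called (main 260). All genes called were 150 with median scaling, 143 when dim genes were kept, 614 with the slide as a block, 663 with the replicate block and 393 with all 20 arrays in a single fit. Same-numbered gland arrays did not all deviate together (correlations 0.22, -0.11, -0.53 and 0.44), so the block there rests on a shared number and slide. With that block the chemokines called stayed at 4, with Ccl8 in (adjusted p = 0.0377, limma) and Ccl19 out (adjusted p = 0.0649, limma). Ccl19 also missed the threshold with normexp (1.17, adjusted p = 0.104, limma), quantile normalization (adjusted p = 0.0501, limma), no filter (adjusted p = 0.214, limma) and the authors' deposited series table (adjusted p = 0.0508, limma). Ccl8 passed without replicate 1 or 4 labelled Irgm1-/- (adjusted p = 0.0414 and 0.0343, limma). When each WT array was left out, Ccl7 passed all 4 times, Ccl2 2 times and Cxcl9 0 times. Each entered those fits through the arrays labelled Irgm1-/- alone. In small intestine the chemokines called stayed at 0 under every alternative, while all genes called (main 32) were 1 with normexp, 20 with no filter, 1 with the replicate block, 20 with the authors' table, 0 with female mice only and 1 to 37 with each array left out. In macrophages the chemokines called also stayed at 0, while all genes called (main 28) were 161 with normexp, 87 with median scaling, 1044 with the replicate block, 835 with all 20 arrays in a single fit, 7 with female mice only and 16 to 46 with each array left out. For salivary gland minus small intestine the count of 1 ranged from 0 to 1 with each array left out. For salivary gland minus macrophages the count of 5 was 2 with normexp, which ended the calls of Cxcl10 (1.78), Ccl8 (1.84) and Ccl19 (1.32), and 3 to 5 with each array left out. With the animal as a replicate block, small intestine minus macrophages stayed at 0. The block changed no other chemokine call. Scaling moved the median of all genes tested, to 0.15 with median scaling and -0.07 with the percentile over all spots in salivary gland (main 0.04), and to -0.20 with median scaling in small intestine (main -0.08). The cause of these changes was not tested. Signal over background limits salivary gland most, where WT levels of Cxcl9, Cxcl10, Ccl2, Ccl7 and Ccl12 are bounds.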
